A study of Homo sapiens with 6 samples.

Results

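Human chromosomes 14, 15, 21 and 22 are acrocentric: the centromere lies near one end, and the short arm is small and made largely of repeats. They were compared between DKO1 and HCT116 cells by Hi-C, which sequences DNA ends that were joined because they lay close together in the nucleus. The members are all 20 kb bins of these 4 chromosomes that have a compartment score in both lines, which came to 11852 of 140474 bins. They also comprise the 212 of 1823 DKO1 domains and the 444 of 4289 HCT116 domains listed on them. HCT116 is a widely used line of colorectal carcinoma cells, from which DKO1 was derived by knocking out the DNA methyltransferase genes DNMT1 and DNMT3B. All libraries came from cells of these lines grown in the same medium with 10% foetal bovine serum, 3 libraries of DKO1 and 3 of HCT116. DKO1 stands for the knockout through this 1 derived line. All 3 replicates of a line carry identical file names in their labels, so each line has 1 compartment track and 1 domain list. Without separate replicates there is no replicate error and no test of DKO1 against HCT116, and each value is a description of these 2 maps.

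Interphase chromatin separates into an A compartment, which is open and gene-rich, and a B compartment, which is compact and gene-poor. Within both lie domains, stretches of DNA whose contacts fall mostly inside their own limits. The short arms of the acrocentric chromosomes carry the tandem ribosomal RNA genes, which gather at the nucleolus, and chromatin beside the nucleolus and the nuclear lamina is mostly of type B. DNA methylation is dense in repeats near centromeres, and DKO1 is known to have lost most of it. Chromosome 22 is known as gene-dense for its size and chromosome 21 as gene-poor over much of its long arm.

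The sign of the deposited PC1 score, the first principal component of the contact map, was read as the compartment, positive for A and negative for B. The tracks have a mean of 0 and an SD of 1 within each chromosome, so values are in units of that SD and levels cannot be set against each other between chromosomes. A bin was called A-to-B when it was B in DKO1 and A in HCT116, and B-to-A in the opposite case. The position of the bins fitted the label. On chromosomes 14, 15, 21 and 22 the first shared bin lay 19, 20.02, 9.38 and 16.06 Mb into the hg19 sequence, and on chromosome 13, the remaining acrocentric chromosome, it lay at 19.04 Mb. On the other 17 autosomes it lay within 0.22 Mb of the start. The bins of chromosomes 14, 15 and 22 therefore cover the long arm from near the centromere on, and 84 bins of chromosome 21 come before a stretch without bins at 11240001 to 14320000. The end with the lower coordinates is called the centromere side below. On chromosome 21 this end includes the 84 bins before that stretch, and the arm they lie on was not determined here. Its position may therefore not correspond to that of the same end on chromosomes 14, 15 and 22.

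The compartments of all 4 chromosomes were largely shared between the lines, and the 4 differed in the direction of what was not shared. Across the bins of a chromosome, PC1 in DKO1 and HCT116 correlated with a Pearson r of 0.94 on chromosome 14, 0.92 on 15, 0.92 on 21 and 0.95 on 22, over 4399, 3970, 1774 and 1709 bins. These correlations are descriptions, because neighbouring bins share reads and are not independent. In all, 9.94% of the bins of the 4 chromosomes had another compartment in DKO1 than in HCT116, against 13.6% on the other 18 autosomes and 15.1% of all shared bins, chromosome X included. The share was 8.27% on chromosome 14, 12.9% on 15, 9.08% on 21 and 8.25% on 22. They ranked 17, 9, 16 and 18 from the highest among the 22 autosomes, so that all 4 lay inside the range of the others, 5.48% (chromosome 19) to 26.4% (chromosome 13). Chromosome 13 has the same acrocentric shape and had r = 0.62.

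With the zero of the deposited tracks, the 4 chromosomes differed from each other in direction. On chromosome 15 the A-to-B bins numbered 483 and the B-to-A bins 29. On chromosome 14 they numbered 282 and 82, on chromosome 22 70 and 71, and on chromosome 21 25 and 136. A-to-B bins made up 12.2% of chromosome 15, 6.41% of 14, 4.10% of 22 and 1.41% of 21, where 10.2% of all shared bins were A-to-B. The shares on chromosomes 21 and 22 were the lowest of the 22 autosomes. B-to-A bins made up 7.67% of chromosome 21, 4.15% of 22, 1.86% of 14 and 0.73% of 15, where 4.99% of all shared bins were B-to-A. Chromosome 21 ranked 3 and chromosome 15 ranked 21 from the highest in this direction. These counts depend on where 0 lies. With the median of each chromosome subtracted both directions are equal by construction, at 144 bins each on chromosome 14, 179 on 15, 74 on 21 and 107 on 22. With a 10 Mb running mean subtracted, A-to-B and B-to-A bins numbered 259 and 120 on chromosome 14, 280 and 84 on 15, 63 and 136 on 21, and 86 and 101 on 22.

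The share of compartment A moved accordingly. It was 51.6% in DKO1 and 63.0% in HCT116 on chromosome 15, and 47.9% in DKO1 and 52.5% in HCT116 on chromosome 14. On chromosome 22 it was 60.04% in DKO1 and 59.98% in HCT116. On chromosome 21 it was 56.3% in DKO1 and 50.1% in HCT116, a difference of 6.26 percentage points, the highest among the 22 autosomes, where the other 18 ranged from -16.2 to 1.21. With the median subtracted these differences too are 0 by construction. Counting bins by the size of the change in place of the sign also put chromosome 21 on the side of higher scores in DKO1. This count too depends on where 0 lies in each track, is not separate from the counts by sign, and was not repeated with the median subtracted. The median PC1 of chromosome 21 was 0.251 in DKO1 and 0.015 in HCT116. On this chromosome 3.21% of bins were higher in DKO1 by at least 1 SD and 0% were lower by that much, against 4.37% and 3.88% of all shared bins, chromosome X included. The medians over the other 18 autosomes were 1.27% higher and 1.82% lower, and chromosome 21 ranked 7 of 22 for higher bins and 22 of 22 for lower ones. On chromosomes 14, 15 and 22 the bins higher by 1 SD made up 0.27%, 0.38% and 0.23%, and those lower by 1 SD 0.34%, 0.43% and 0.47%.

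**Figure D1:**
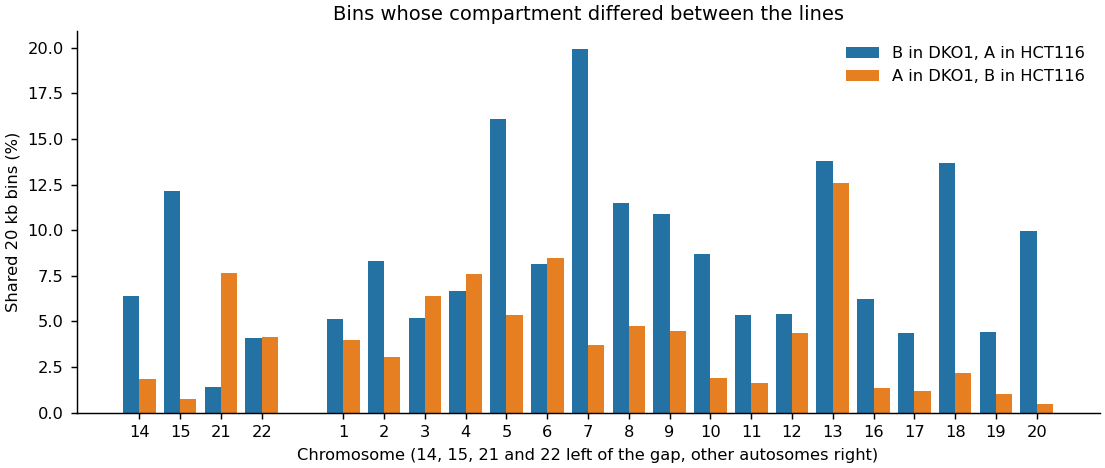
Percentage of the shared 20 kb bins of each autosome that were B in DKO1 and A in HCT116 (blue) or A in DKO1 and B in HCT116 (orange), with 1 value per chromosome and no error bars because each line has 1 track. Chromosome 15 had 12.2% in blue and 0.73% in orange, while chromosome 21 had 1.41% and 7.67%.

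The bins that differed on chromosomes 14, 15 and 22 mostly had scores close to 0 in both lines, as did the A-to-B bins of chromosome 21. The B-to-A bins of chromosome 21 did so less often. The median PC1 of the A-to-B bins was -0.30 in DKO1 and 0.27 in HCT116 on chromosome 15, and -0.23 in DKO1 and 0.19 in HCT116 on chromosome 14. Among the A-to-B bins of chromosome 15, 73.7% had an absolute PC1 under 0.5 in both lines, against 54.5% on the other 18 autosomes. The same share was 72.7% on chromosome 14, 76% on 21 and 68.6% on 22. Among B-to-A bins it was 62.2%, 93.1%, 36.0% and 66.2% on chromosomes 14, 15, 21 and 22, against 48.9% on the other 18 autosomes. None of the 483 A-to-B and 29 B-to-A bins of chromosome 15 had 0.5 or more in both lines. The B-to-A bins of chromosome 21 had a median of 0.28 in DKO1 and -0.57 in HCT116, and 23 of the 136 passed 0.5 in both lines. Thus 1.30% of the bins of chromosome 21 were B-to-A past this minimum, against 0.27% on the other 18 autosomes.

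Sorted by the HCT116 score, the bins most often different lay on opposite sides of 0. Of bins between 0 and 0.5 in HCT116, 56.2% were negative in DKO1 on chromosome 15, 42.2% on 14, 20% on 22 and 15.3% on 21, against 45.4% on the other 18 autosomes. Of bins between -0.5 and 0, 53.4% were positive in DKO1 on chromosome 21, 36.2% on 22, 9.19% on 14 and 9.18% on 15, against 20.1% on the other 18. Between -1 and -0.5, chromosome 21 still had 26.8%, whereas chromosomes 14, 15 and 22 had 2.81%, 0.99% and 2.48% and the other 18 autosomes 8.92%. No bin above 1 in HCT116 was negative in DKO1 on any of the 4 chromosomes, of 914, 425, 444 and 221 bins on 14, 15, 21 and 22. These shares depend on where 0 lies, as do the counts by direction. The median PC1 was -0.088, 0.056, 0.251 and 0.378 in DKO1 on chromosomes 14, 15, 21 and 22. In HCT116 it was 0.092, 0.360, 0.015 and 0.324, in the same order. Sorting by the HCT116 score by itself draws the DKO1 means of the outer classes toward 0. The deepest B bins, under -1 in HCT116, had a mean on chromosome 15 of -1.30 in DKO1 and -1.55 in HCT116, and on chromosome 14 of -1.39 in DKO1 and -1.70 in HCT116. On chromosome 22 it was -1.51 in DKO1 and -1.61 in HCT116, and on the other 18 autosomes -1.13 in DKO1 and -1.49 in HCT116. On chromosome 21 the same class was deeper in DKO1, with -1.26 against -1.14 in HCT116, and the cause was not tested.

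**Figure D2:**
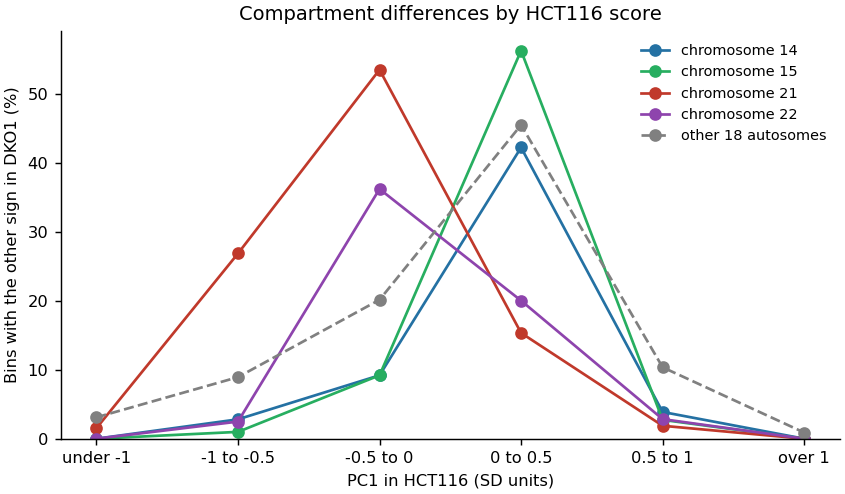
Percentage of bins with the opposite PC1 sign in DKO1 (vertical axis) in 6 classes of the HCT116 PC1 in SD units (horizontal axis), for each of the 4 chromosomes and for the other 18 autosomes together (dashed). Chromosomes 14 and 15 peak between 0 and 0.5, at 42.2% and 56.2%, and chromosomes 21 and 22 between -0.5 and 0, at 53.4% and 36.2%. These shares depend on where 0 lies in each track.

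To see where along the chromosome the lines differed, each was divided into 5 parts with equal numbers of shared bins, numbered from the centromere side. On chromosome 21 part 1, at 9380001 to 19740000, held 104 of the 136 B-to-A bins. There 48.5% of bins were A in DKO1 and 20% in HCT116, and r was 0.73. Part 2, a long B stretch, had 0.28% of bins different, and part 5, 41040001 to 48120000, also had 0.28%. In the 5 Mb nearest the centromere side of chromosome 21 only 87 bins were shared, 84 of them before the stretch without bins. Of these 87 bins, 88.5% were A in DKO1 and 28.7% in HCT116, and r was 0.22. Bins near centromeres lie in repeats where reads are hard to place, and what part this had in these values was not tested. Without these 5 Mb chromosome 21 had 81 B-to-A and 22 A-to-B bins, and 43 of the 81 lay in the next window, at 14380001 to 19380000, just past the stretch without bins.

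Chromosome 14 also had more B-to-A than A-to-B bins at its centromere side, while beyond the first 5 Mb A-to-B bins outnumbered B-to-A bins by 280 to 32. Its first 5 Mb, at 19000001 to 24000000, held 50 of the 82 B-to-A bins and 2 of the 282 A-to-B bins, and 74.4% of its bins were A in DKO1 and 53.8% in HCT116. In part 2, at 36920001 to 54520000, 54 bins were A-to-B and 0 B-to-A. Beyond the first 5 Mb the direction was not uniform throughout, and the window at 54000001 to 59000000 held 1 A-to-B and 13 B-to-A bins. By the sign of PC1, chromosomes 15 and 22 did not differ to such an extent at the centromere side. Their first 5 Mb had 1.71% and 2.43% of bins different, with A shares of 22.9% in DKO1 and 22.3% in HCT116 on chromosome 15 and of 62.6% in DKO1 and 61.2% in HCT116 on chromosome 22. The score itself did differ on chromosome 15, where the first 5 Mb had a mean PC1 of -0.54 in DKO1 and -0.97 in HCT116. The mean of that stretch was 0.55 in DKO1 and 0.17 in HCT116 on chromosome 14. It was 0.034 in DKO1 and 0.017 in HCT116 on chromosome 22. On chromosome 13, the first 5 Mb had 32 A-to-B and 30 B-to-A bins.

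On chromosome 15 the A-to-B bins were spread over the arm, with 133, 116, 85, 101 and 48 in parts 1 to 5, but 161 of the 483 lay in the window at 35020001 to 40020000. In that window 18.4% of bins were A in DKO1 and 82.8% in HCT116, and 7 of the 18 A-to-B runs of at least 200 kb on the chromosome began there. It lies directly before a window, at 40020001 to 45020000, in which all bins were A in both lines. On chromosome 22 the directions alternated along the arm. Parts 1 and 4 held 37 and 32 of its 71 B-to-A bins, and parts 2 and 5 held 38 and 23 of its 70 A-to-B bins.

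At the telomere side, the compartments of the last 5 Mb were nearly the same in both lines on 3 of the 4 chromosomes. On chromosome 21 all 250 bins were A in both, and on chromosomes 14 and 22 0.8% of bins differed on each. On chromosome 15 11.2% differed, 25 bins of them A-to-B and 3 B-to-A. The mean PC1 of the last 5 Mb was 0.86, -0.005, 0.83 and -0.25 in DKO1 on chromosomes 14, 15, 21 and 22. In HCT116 it was 0.58, -0.082, 0.83 and -0.32, in the same order.

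**Figure D3:**
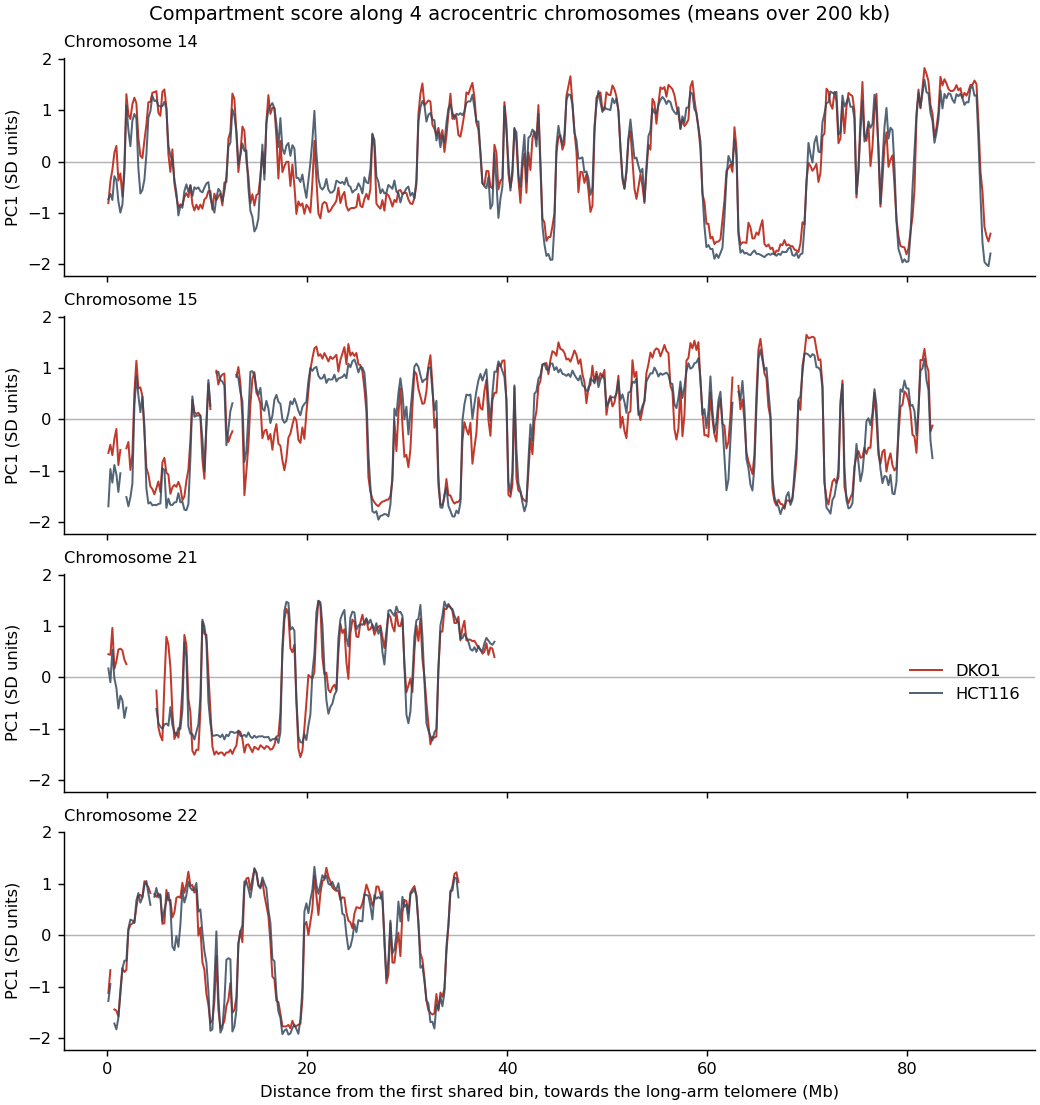
PC1 in SD units, averaged over 200 kb (vertical axis), against the distance in Mb from the first shared bin (horizontal axis) for DKO1 (red) and HCT116 (dark grey) on the 4 chromosomes. Breaks are stretches without shared bins. DKO1 lies above HCT116 at the left end of chromosome 21 and on the low side of 0 between about 15 and 20 Mb on chromosome 15, where HCT116 lies above 0.

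Consecutive bins that differed in the same direction were joined into runs, and the named runs are the 2 longest and the one with the largest mean difference, per chromosome and direction, among runs of at least 100 kb. No gene is named, because no gene annotation of hg19 was used here. The largest mean difference of a named run, 1.54, was on chromosome 21. At 15060001 to 15560000 the mean PC1 was 0.62 in DKO1 and -0.92 in HCT116 over 25 bins, and the run lay between bins that were B in HCT116. It was touched by 0 DKO1 domains and 1 HCT116 domain. At 10340001 to 11120000, just before the stretch without bins, the mean was 0.51 in DKO1 and -0.52 in HCT116 over 39 bins, and the difference of 1.03 became 0.40 after a 10 Mb running mean was subtracted. These 2 runs held 47.1% of the B-to-A bins of the chromosome. Its A-to-B runs were short, with 160 kb at 39840001 to 40000000 (-0.27 in DKO1 and 0.14 in HCT116) and 100 kb at 33480001 to 33580000 (-0.14 in DKO1 and 0.66 in HCT116).

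On chromosome 15 the runs were many and moderate. Its 76 A-to-B runs had a median length of 60 kb, and 18 of them, of 200 kb or more, held 63.8% of their bins. The longest measured 540 kb each. At 36940001 to 37480000 the mean PC1 was -0.47 in DKO1 and 0.31 in HCT116, and at 55700001 to 56240000 it was -0.21 in DKO1 and 0.42 in HCT116. The second of these was touched by 0 DKO1 domains and 3 HCT116 domains. The largest difference, -0.93, was found at 49760001 to 50020000, with -0.71 in DKO1 and 0.22 in HCT116. Its 19 B-to-A runs were all shorter than 100 kb, and none is named.

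On chromosome 14 the longest A-to-B run, at 89900001 to 90360000, did not touch a bin that was B in HCT116 and had -0.33 in DKO1 and 0.19 in HCT116. The next 2 were tied at 240 kb. The run at 35920001 to 36160000 had -0.39 in DKO1 and 0.24 in HCT116, and a DKO1 domain with no match in HCT116 had exactly these limits. The run at 66020001 to 66260000 had -0.53 in DKO1 and 0.07 in HCT116. The named B-to-A runs lay near the centromere side, while other B-to-A runs lay farther along, as at 57780001 to 57920000. At 22360001 to 22640000 the mean was 0.07 in DKO1 and -0.57 in HCT116, and at 22060001 to 22280000 it was 0.28 in DKO1 and -0.43 in HCT116, with 80 kb between the 2 runs. The largest differences were 1.22 at 19560001 to 19660000 and -0.95 at 95200001 to 95320000.

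On chromosome 22 all 15 B-to-A runs touched a bin that was already A in HCT116, and the 2 longest held 53.5% of the bins. At 40080001 to 40480000 the mean PC1 was 0.26 in DKO1 and -0.27 in HCT116, and 3 HCT116 domains but 0 DKO1 domains touched the run. At 22500001 to 22860000 it was 0.39 in DKO1 and -0.29 in HCT116. The run with the largest difference, 0.96, followed at 23000001 to 23220000, with 0.72 in DKO1 and -0.24 in HCT116. In the other direction, 240 kb at 45140001 to 45380000 had -0.31 in DKO1 and 0.58 in HCT116, and 180 kb at 25420001 to 25600000 had -0.28 in DKO1 and 0.33 in HCT116.

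The longest stretches of 1 compartment were nearly the same in both lines on chromosome 14, and at least one of them differed in place or length on chromosomes 15, 21 and 22. In each of these stretches at least 88.4% of bins had the same compartment in the other line, so a few bins of the other sign can set where a stretch ends. On chromosome 14 the longest B stretch was 7020 kb in DKO1, at 81960001 to 88980000, and 7000 kb in HCT116, with the same start. On chromosome 21 it was 7280 kb in DKO1 and 7460 kb in HCT116, beginning at 19500001 in DKO1 and 19340001 in HCT116, and no domain of either list touched it. Its longest A stretch lay elsewhere in each line, with 5660 kb at 42460001 to 48120000 in DKO1 and 6700 kb at 32400001 to 39100000 in HCT116. Of the bins of the DKO1 stretch 100% were also A in HCT116, and of those of the HCT116 stretch 97.9% were also A in DKO1. The longest A stretch of chromosome 14 measured 6440 kb in DKO1 and 6560 kb in HCT116. On chromosome 15 the longest A stretch was 6980 kb in DKO1, at 62880001 to 69860000, and 9260 kb in HCT116, at 62600001 to 71860000, while the longest B stretch was 4680 kb in DKO1 and 2800 kb in HCT116. Of the bins of that HCT116 A stretch 92.4% were A in DKO1, and of those of that DKO1 B stretch 99.1% were B in HCT116. On chromosome 22 the longest B stretch was 3820 kb in DKO1, at 25420001 to 29240000, and 3320 kb in HCT116, at 32380001 to 35700000. Stretches of 1 sign were more numerous in DKO1 on 3 of the 4 chromosomes, with 112 in DKO1 and 103 in HCT116 on chromosome 14, 124 in DKO1 and 110 in HCT116 on 15, and 49 in DKO1 and 25 in HCT116 on 21. On chromosome 22 there were 31 in DKO1 and 61 in HCT116. After smoothing over 5 bins, chromosome 21 had 31 in DKO1 and 23 in HCT116 and chromosome 22 had 30 in DKO1 and 33 in HCT116. The mean step between neighbouring bins on chromosome 22 was 0.074 in DKO1 and 0.082 in HCT116. That ratio of 0.90 was the lowest of the 22 autosomes, and what part it had in the count of stretches was not tested.

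Domains were fewer in DKO1 on all 4 chromosomes, at nearly the same length. Chromosome 14 had 65 in DKO1 and 143 in HCT116, chromosome 15 had 69 in DKO1 and 148 in HCT116, chromosome 21 had 25 in DKO1 and 59 in HCT116, and chromosome 22 had 53 in DKO1 and 94 in HCT116. The DKO1 number was thus 45.5%, 46.6%, 42.4% and 56.4% of the HCT116 number on 14, 15, 21 and 22. The other 18 autosomes together had 42.1%, and ranged from 24.3% on chromosome 13 to 56.7% on chromosome 19, just above chromosome 22. The median length was 280 kb in both lines on chromosomes 14 and 15. It was 280 kb in DKO1 and 320 kb in HCT116 on chromosome 21, and 240 kb in DKO1 and 280 kb in HCT116 on chromosome 22. On chromosome 22 domains held 42.8% of the shared bins in DKO1 and 77.2% in HCT116, the highest HCT116 share of the 22 autosomes. No read depth is given for either map, and what part depth had in these numbers was not tested.

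Each list had 1 entry longer than 2 Mb on these chromosomes. Both were on chromosome 21, at 11000001 to 14760000 in DKO1 and 11000001 to 14640000 in HCT116, and both span the stretch without bins. PC1 bins covered 17.6% of the DKO1 entry and 14.8% of the HCT116 entry, so that neither is a domain in the sense of the others.

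Chromosomes 21 and 22, which are of similar size, differed in where the domains lay. Compartment A of chromosome 21 had 110.1 domains per 100 Mb in DKO1 and 259 in HCT116, and its compartment B had 19.4 in DKO1 and 73.4 in HCT116, each line in its own compartments. Compartment A of chromosome 22 had 209.6 per 100 Mb in DKO1 and 283 in HCT116, and its compartment B had 73.2 in DKO1 and 263 in HCT116. That HCT116 density in B was the highest of the 22 autosomes, of which the other 18 reached at most 211.4. The DKO1 density in A was 74.1% of that in HCT116 on chromosome 22 and 67.6% on chromosome 15, the highest and second highest of the 22 autosomes. It was 59.1% on chromosome 14 and 42.5% on chromosome 21, where only chromosome 13 was lower, at 35.2%. In compartment B the corresponding shares were 23.3%, 20.8%, 26.4% and 27.8% on chromosomes 14, 15, 21 and 22, from only 11, 12, 3 and 10 DKO1 domains. Each density divides by that line's own compartment length, so these shares and their ranks depend on where 0 lies. The number of domains in A was 54, 57, 22 and 43 in DKO1 and 100, 103, 46 and 58 in HCT116, in the same order. The ranks are those of the densities and not of these numbers.

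**Figure D4:**
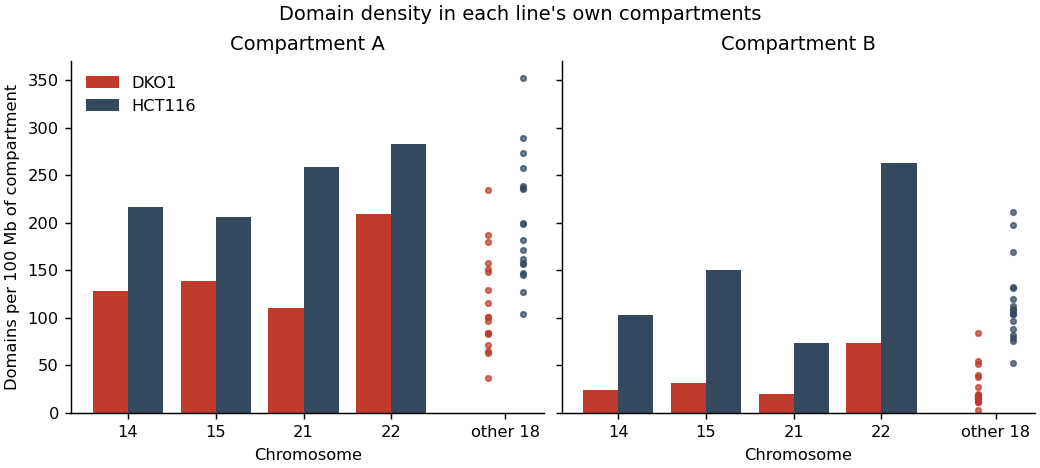
Domains per 100 Mb of compartment A (left) and B (right), each line in its own compartments, for DKO1 (red bars) and HCT116 (dark bars) on the 4 chromosomes, with 1 dot per line for each of the other 18 autosomes. On chromosome 22 the bars in B stand at 73.2 in DKO1 and 263 in HCT116.

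As a share of the HCT116 number, the DKO1 number of domains was highest in part 5, at the telomere side, on chromosomes 14, 15 and 21. In parts 1 to 5 chromosome 14 had 9, 4, 16, 13 and 23 domains in DKO1, against 33, 15, 34, 24 and 37 in HCT116. Chromosome 21 had 2, 0, 2, 7 and 14 in DKO1, against 7, 0, 11, 18 and 23 in HCT116, and the entry of over 2 Mb is among those of its part 1. Chromosome 15 had 10, 9, 13, 19 and 18 in DKO1, against 20, 27, 36, 35 and 30 in HCT116. Chromosome 22 had 12, 9, 8, 15 and 9 in DKO1, against 19, 18, 19, 22 and 16 in HCT116, with the highest share in part 4.

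**Figure D5:**
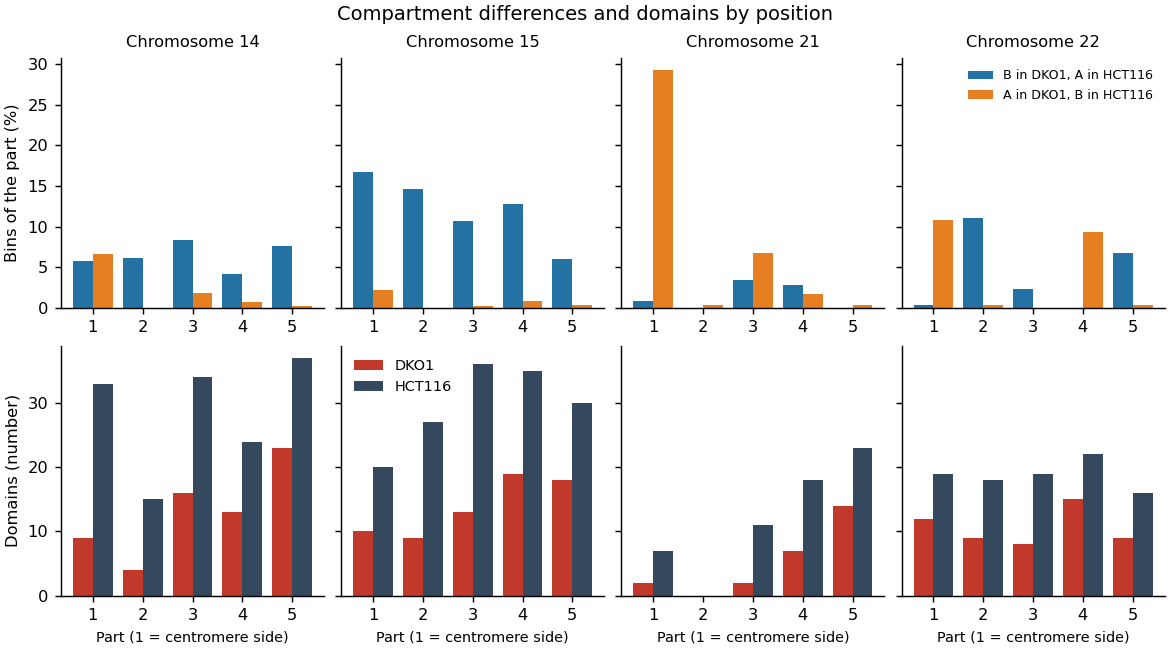
For the 5 parts of each chromosome, numbered 1 at the centromere side to 5 at the telomere side, the upper row gives the percentage of bins that were B in DKO1 and A in HCT116 (blue) or A in DKO1 and B in HCT116 (orange), and the lower row the number of domains in DKO1 (red) and HCT116 (dark). The orange bar of part 1 of chromosome 21 reaches 29.3%, and its domains in part 5 number 14 in DKO1 and 23 in HCT116.

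The longest stretches between DKO1 domains held some HCT116 domains, and their lack of DKO1 domains is fixed by how they were picked. The longest stretch between neighbouring DKO1 domains was 13880 kb on chromosome 14, at 36160001 to 50040000, where 9 HCT116 domains lay and 8.79% of bins were A in DKO1 and 18.7% in HCT116. On chromosome 21 it was 11120 kb, at 19320001 to 30440000, with 3 HCT116 domains. On chromosome 15 it was 5400 kb, at 46000001 to 51400000, with 6 HCT116 domains. On chromosome 22 it was only 2160 kb, at 27080001 to 29240000, and 7 HCT116 domains lay in it. All 4 were mostly B in both lines, with at most 27% of bins A in DKO1 and 44.8% in HCT116. For comparison, HCT116 had 162.5, 186.4, 166.3 and 275 domains per 100 Mb on the whole of chromosomes 14, 15, 21 and 22. In its compartment B it had 102.9, 150, 73.4 and 263, in the same order.

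Most DKO1 domains had a counterpart in HCT116. A match was a reciprocal overlap of at least 80%, and intervals in brackets are Wilson intervals at 95%, which cover counting error only and take domains as independent. Of the HCT116 domains of the 4 chromosomes, 172 of 444 were matched in DKO1, or 38.7% (34.3 to 43.3), against 35.5% on the other 18 autosomes and 35.3% of all HCT116 domains. The shares were 36.4% on chromosome 14, 39.9% on 15, 39.0% on 21 and 40.4% on 22, and their intervals overlapped. Of the DKO1 domains, 81.1% (75.3 to 85.8) were matched in HCT116, against 83.1% of all DKO1 domains. In this direction chromosome 21 was highest, with 23 of 25 or 92% (75 to 97.8), and chromosome 22 lowest of the 22 autosomes, with 38 of 53 or 71.7% (58.4 to 82.0). The intervals of these 2 chromosomes overlapped. At identical start and end, 16 of the 25 DKO1 domains of chromosome 21 and 19 of the 53 of chromosome 22 were listed in HCT116. These shares were the highest and the lowest of the 22 autosomes. Chromosome 14 had 32 of 65, chromosome 15 had 30 of 69, and the other 18 autosomes together had 781 of 1533.

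The 15 DKO1 domains of chromosome 22 without a match mostly overlapped HCT116 domains that had other limits. Of these, 8 lay inside 1 HCT116 domain, 1 held the larger part of several HCT116 domains, and 1 touched none. For 8 of them both ends were found in the HCT116 list within 40 kb. The other 18 autosomes had 240 DKO1 domains without a match. Of those, 98 lay inside 1 HCT116 domain, 18 held the larger part of several and 26 touched none. For 73 of the 240 both ends were found, so overlap with HCT116 domains was not particular to chromosome 22. The one on chromosome 22 that held several, at 26160001 to 26760000, was 600 kb long and had a mean PC1 of -1.64 in DKO1 and -1.72 in HCT116.

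Domains in A were matched more often than domains in B on each of the 4 chromosomes. In A the shares of HCT116 domains matched were 45.0% of 100 on chromosome 14, 50.5% of 103 on 15, 43.5% of 46 on 21 and 51.7% of 58 on 22. In B they were 16.3% of 43, 15.9% of 44, 23.1% of 13 and 22.2% of 36, in the same order. Over the 4 chromosomes the shares were 47.9% in A and 18.4% in B, near the 44.5% in A and 16.8% in B of the other 18 autosomes. The 2 intervals overlapped on chromosome 21, at 30.2 to 57.8 in A and 8.18 to 50.3 in B, and lay apart on the other 3 chromosomes. HCT116 domains whose mean PC1 was below 0 in DKO1 and above 0 in HCT116 numbered 4, 14, 1 and 1 on 14, 15, 21 and 22, of which 1, 3, 0 and 1 were matched, or 5 of 20 in all, against 40 of 201 on the other 18 autosomes. Those with the opposite change numbered 4, 0, 3 and 6, of which 2 of 13 in all were matched, against 37 of 166 on the other 18 autosomes.

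Boundaries were taken as the distinct starts and ends of the listed domains, so their counts are not separate from those of the domains. Within 40 kb, 319 of the 346 DKO1 boundaries of the 4 chromosomes were found in HCT116, or 92.2% (88.9 to 94.6), against 91.9% of all DKO1 boundaries. DKO1 in turn held 323 of the 646 HCT116 boundaries, or 50% (46.2 to 53.8), against 44.6% on the other 18 autosomes and 44.7% of all. The share was 60.5% on chromosome 22, 50.6% on 21, 47.0% on 14 and 46.9% on 15. On the other 18 autosomes it ranged from 26.4% on chromosome 13 to 67.1% on chromosome 19.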

How the data were processed

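Hi-C libraries of formaldehyde-fixed DKO1 and HCT116 cells were made with an Arima kit, per the labels' protocols. HiC-Pro, HOMER 4.6 and the build hg19 (GRCh37) are listed without roles, per the submitters' processing notes. Which tool called the domains, and how reads were filtered, is not given in the sources used here. The deposited PC1 score is given per 20 kb bin, and its mean of 0 and SD of 1 within each autosome were checked on the files. The deposited domain lists hold starts and ends on a 40 kb grid and no score. The files used hold no contact counts, so depth is unknown. Replicates were taken as pooled, and samples were grouped by title.

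Tracks were joined by chromosome and start. Shares, ranks among the 22 autosomes, runs, matches (80% reciprocal overlap) and boundaries (40 kb) were computed with Python 3.11.15, numpy 2.4.6, pandas 2.3.3 and scipy 1.17.1. Chromosomes, bins and domains are not samples, so no p-value was computed. The chromosomes, lists and rules were chosen with earlier results of these data known. Named regions were, per chromosome, the 2 longest runs and the run with the largest difference in each direction (at least 100 kb), the longest stretch of each sign, the longest stretch between DKO1 domains and entries over 2 Mb. The run tied for length and the window with 13 B-to-A bins on chromosome 14, the 5 Mb window on chromosome 15, the unmatched domain on chromosome 22 and the bins past 0.5 SD by direction were picked after their values were seen. The run search recovered 200 of 200 runs planted in the HCT116 track of the 4 chromosomes, which tests the code only. No sequence is shown, because no genome of hg19 was used here.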

Additional observations from a re-analysis of the deposited data

How the results depend on the processing

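No paired analysis was possible because the files hold 1 pooled track and 1 pooled list per line, which also leaves no single replicate to drop. All alternatives were planned, and values are given in the order chromosomes 14, 15, 21 and 22. The share of bins that differed was 0.072%, 0%, 1.77% and 0.089% with a PC1 minimum of 0.5 SD in both lines, 6.55%, 9.02%, 8.34% and 12.5% with the median subtracted, and 8.62%, 9.17%, 11.2% and 10.9% with a 10 Mb running mean subtracted. It was 7.49%, 13.4%, 6.11% and 9.05% without the centromere-side 5 Mb, and 2.09%, 7.76%, 4.17% and 3.57% for runs of at least 200 kb. Under the PC1 minimum chromosome 15 ranked 22 and chromosome 21 ranked 4 from the highest of 22, in place of 9 and 16. The net change in A share in percentage points, -4.55, -11.4, 6.26 and 0.059 as deposited, was 0.072, 0, 1.77 and -0.089 with the minimum, so that its sign turned on chromosomes 14 and 22, where 2 and 1 bins that differed remained, and 0 on all 4 with the median subtracted, by construction. The correlation stayed between 0.89 and 0.96 under the alternatives tried. With a reciprocal overlap of 90%, 23.8%, 23%, 28.8% and 22.3% of HCT116 domains were matched. DKO1 boundaries were found in 67.6%, 67.0%, 79.1% and 65.1% at tolerance 0, in 95.2%, 97.4%, 95.3% and 95.2% at 80 kb, and in 95.2%, 99.1%, 100% and 96.4% at 120 kb. HCT116 boundaries were found in 33.0%, 34.1%, 42.0% and 43.5% at tolerance 0. The share that differed in part 1 of 5, 12.4%, 18.9%, 30.1% and 11.1%, was 22.2%, 1.71%, 66.7% and 2.43% in the first 5 Mb, because the windows hold other bins. Smoothing left 65 stretches in HCT116 on chromosome 14, 31 in DKO1 on 21 and 33 in HCT116 on 22. For the other 18 autosomes the share that differed was 13.1% without chromosome 13 and 11.5% as the median over chromosomes. DKO1 domains as a percentage of HCT116 domains stayed within 1.5 times under every alternative tried. Of 18 named runs, all but that at 66020001 of chromosome 14, none changed sign in the 54 values recomputed, and 6 values moved by over 1.5 times. These were the run at 89900001 of chromosome 14 (to -0.34), those at 36940001 (to -0.47) and 55700001 (to -0.33) of chromosome 15 and that at 39840001 of chromosome 21 (to -0.65) with the median subtracted, and those at 36940001 (to -0.51) and 10340001 of chromosome 21 (to 0.40) with the running mean subtracted. Where no construction is named, the cause was not tested.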
